A study of Mus musculus with 2 samples.

Results

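The 10 genes described here, Cfap126, Tppp3, Dynlrb2, Fam183b, 1110017D15Rik, Nme5, Riiad1, Foxj1, Ccdc153 and Tmem212, are genes of the motile cilium whose transcripts were followed in neuroendocrine tumor cells. They are 10 of the 27998 genes in the count tables. The genes were selected on their UMI counts in these same 2 tumors, for their level in cell clusters of TKO1, with earlier results known. Their levels by tumor, their clusters and their correlations are therefore given as a description, with no test. The 2 samples are 1 lung tumor from each of 2 mice, TKO1 and TKO2, and each was made into 1 single-cell library on the Chromium platform of 10x Genomics from live sorted cells. Both mice carried the genotype Rb-/-; Trp53-/-; Rbl2-/- with a Rosa26 reporter (membrane-Tomato or membrane-GFP), with the strains 129/SVJ, C57BL/6 and 129/SvOla mixed, both were 8-9 months old, and both tumors were taken 7 months after the deletions were induced with Adeno-CMV-cre. This is a mouse model of small cell lung cancer (SCLC) in which the viral promoter is not restricted to one lung cell type, and no control tissue is part of the series. With 1 tumor per mouse, a difference between TKO1 and TKO2 has no replicate check, and the tumor, the mouse and the library cannot be told apart.

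Motile cilia are the beating organelles of multiciliated airway cells, built on a core of microtubules, the axoneme, with dynein motors, radial spokes and proteins inside the microtubules. Foxj1 is the transcription factor that switches on most genes of this organelle, together with factors of the RFX family. Pulmonary neuroendocrine cells, from which SCLC is thought to arise, are not multiciliated, although they can carry a primary cilium, the single non-motile cilium of many cell types.

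The promoters of 4 of the genes are shown because they share a short word that RFX factors are known to bind. Of the 10 genes, 6 have an entry in the RefSeq promoter table of GRCm38.p6, with 9 transcription start sites in all. The word GTTGCC, the core of the motif of RFX factors, was searched on both strands in the 250 bases before each start. It stood in 4 of the 6 genes, against 11.8% of the 27025 genes in the table. The forkhead words TGTTTAC and TATTTAC, searched in the same way, stood in 2 of the 6, Cfap126 and Tmem212 (TATTTAC in both), against 6.51% of the genes. The sequences below read 5′ to 3′ in the direction of the gene, capitals mark GTTGCC or its complement, and bases that lie in an exon of GENCODE M21 were left off.
Dynlrb2, chr8:116504765-116504973, plus strand: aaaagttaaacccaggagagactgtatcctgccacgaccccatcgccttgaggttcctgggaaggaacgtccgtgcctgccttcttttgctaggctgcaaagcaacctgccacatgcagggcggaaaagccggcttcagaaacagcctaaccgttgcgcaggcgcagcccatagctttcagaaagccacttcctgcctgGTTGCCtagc
Fam183b, chr11:58801961-58802210, minus strand: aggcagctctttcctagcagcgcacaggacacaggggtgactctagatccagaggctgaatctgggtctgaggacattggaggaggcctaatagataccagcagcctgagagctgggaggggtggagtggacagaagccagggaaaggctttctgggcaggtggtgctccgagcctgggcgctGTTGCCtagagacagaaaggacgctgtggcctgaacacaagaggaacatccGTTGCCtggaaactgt
1110017D15Rik, chr4:41507765-41508014, minus strand: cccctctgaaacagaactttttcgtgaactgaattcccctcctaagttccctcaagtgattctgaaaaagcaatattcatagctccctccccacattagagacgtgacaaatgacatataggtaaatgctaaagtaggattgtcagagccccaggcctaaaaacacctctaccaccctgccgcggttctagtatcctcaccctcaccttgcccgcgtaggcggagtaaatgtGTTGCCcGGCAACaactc
Ccdc153, chr9:44240427-44240675, plus strand: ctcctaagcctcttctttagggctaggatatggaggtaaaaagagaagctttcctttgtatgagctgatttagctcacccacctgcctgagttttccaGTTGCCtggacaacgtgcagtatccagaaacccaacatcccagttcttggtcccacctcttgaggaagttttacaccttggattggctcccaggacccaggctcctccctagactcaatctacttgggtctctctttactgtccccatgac
The word lies 51 bases before the start of Dynlrb2, at 67 and 16 bases in Fam183b, and at 152 bases in Ccdc153. In 1110017D15Rik it lies at 18 bases before the second of 2 listed starts, followed on the opposite strand by a copy at 11 bases, so that the pair reads the same on both strands around its central base. A match is a description of these letters and shows no binding in these cells.

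The tables hold 4514 barcodes for TKO1 and 3816 for TKO2, and 3193 and 3568 of them had more than 500 detected genes and are called retained. Cells were clustered in each tumor and clusters named from fixed markers. The neuroendocrine-like cells numbered 2990 of TKO1, with 4226973 UMIs, and 3381 of TKO2, with 7760480 UMIs. TKO1 also held 98 macrophage-like and 105 club-like cells, and TKO2 held 121 macrophage-like cells and 66 cells with markers of both club and neuroendocrine cells that stay unnamed. The 15 neuroendocrine markers summed to 23249 CPM (UMIs scaled to the total UMIs of the same cells) in neuroendocrine-like TKO1 cells. In those of TKO2 they summed to 2005 CPM, and no marker was at 0 UMIs in either tumor. The sums do not stand for each marker. By single markers the median was 2.79-fold higher in TKO1, where it was 1.29-fold over all genes with at least 10 UMIs. At least 4-fold higher were 6 of the 15, Calca among them, where 14.5% of those genes were. These markers also served to name the clusters, so their presence is no test of the labelled tumor type. Of all barcodes, 22 occur in both tables, 11 of them among retained cells.

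Before the levels are given, 4 cells need to be set apart. Over 75 other genes of the motile cilium, 2 retained cells of TKO1 had UMIs of 25 and 11 genes, and 2 of TKO2 had UMIs of 21 and 14, where the median neuroendocrine-like cell had 1 gene in TKO1 and 0 in TKO2. The limit of 10 genes was chosen after the data were seen, and 8 more cells of TKO1 lie just under it, at 8 or 9 genes. These 4 are called ciliated-rich cells. Both cells of TKO1 fell in neuroendocrine-like cluster 4. The one with 25 genes had 41 UMIs of the 10 genes and 4 UMIs of Calca, which encodes a neuroendocrine peptide, and the other had 21 UMIs of the 10 genes and 25 of Calca. Both cells of TKO2 lie among the unnamed cells and had 0 UMIs of Calca. None of the 4 barcodes, a count of 0, occurs in the other tumor's table. The main results below are given with and without them where they change the reading.

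Ccdc153 is the gene that these cells decide. It encodes a component of the complex that regulates axonemal dyneins (chr9:44240676-44247306). All 8 of its UMIs in neuroendocrine-like cells of TKO1 came from the 2 ciliated-rich cells, 4 in each, and all 6 of its UMIs in TKO2 came from the other 2, with 2 and 4. In the remaining 2988 neuroendocrine-like cells of TKO1 it had 0 UMIs, and 0 of 2148 of them had one at 1000 UMIs per cell, which allows a share of up to 0.140%. Ccdc153 was therefore not detectable in neuroendocrine tumor cells at this depth outside these cells.

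Between the tumors, 8 of the 9 genes with at least 10 UMIs were at least 4-fold higher in TKO1, where 14.5% of the 12924 genes with that many UMIs were. The genes were chosen for their level in clusters of TKO1, so this order is partly built in. Cfap126, Dynlrb2, Nme5 and Tmem212 reached the minimum only with their UMIs in TKO1, so the count is a description. Intervals are 95%, exact (Poisson for a level, conditional binomial for a ratio), and cover counting error only. The median log2 ratio of all 12924 genes was 0.37, so a ratio near that value is no difference relative to the rest. Summed, the 10 genes had 567 CPM (544 to 590, 2396 UMIs) in TKO1 and 34.5 CPM (30.5 to 38.9, 268 UMIs) in TKO2, a log2 ratio of 4.04 (3.85 to 4.22). Without the ciliated-rich cells TKO1 had 553 CPM (531 to 576) and 8 of 9 genes were again at least 4-fold higher.

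Foxj1, the regulator (chr11:116330704-116335399), had 51.1 CPM (44.5 to 58.4) in TKO1 and 2.32 CPM (1.37 to 3.67) in TKO2, a log2 ratio of 4.46 (3.77 to 5.24). Of its 216 UMIs in TKO1, 213 lay in 183 cells that were not ciliated-rich, with at most 4 in a cell. Foxj1 was thus read in TKO1 from many cells with 1 or a few UMIs each. In TKO2 it had 18 UMIs in 14 cells.

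Of the genes whose proteins are parts of the axoneme or of its motors, Cfap126 (chr1:171113918-171126967), which encodes Flattop, a microtubule protein, had 45.9 CPM (39.7 to 52.8) in TKO1 against 0.773 CPM (0.284 to 1.68) in TKO2. Dynlrb2 (chr8:116504974-116515915), a light chain of dyneins, had 26.7 CPM (22.0 to 32.1) against 0.129 CPM, which is 1 UMI, and a log2 ratio of 7.70 (5.19 to 13.0), but of 4.41 (3.48 to 5.51) over all retained cells, since 7 of its 10 UMIs in the retained cells of TKO2 lay in ciliated-rich cells. Nme5, on chromosome 18, encodes a protein of the nucleoside diphosphate kinase family found in radial spokes, and had 75.2 CPM (67.2 to 84.0) against 0.387 CPM from 3 UMIs, a log2 ratio between 6.04 and 9.89. For these 3 genes the TKO2 tumor had 10 UMIs in all in its neuroendocrine-like cells. Fam183b (chr11:58792797-58801960), which encodes a ciliary microtubule protein, had 42.6 CPM (36.6 to 49.3) against 3.61 CPM (2.40 to 5.21), a log2 ratio of 3.56 (2.98 to 4.19).

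Of the remaining genes, 1110017D15Rik (chr4:41505009-41517333) had 169 CPM (157 to 182, 715 UMIs) in TKO1 and 2.83 CPM (1.78 to 4.29, 22 UMIs) in TKO2. Riiad1 (chr3:94464983-94480341), which encodes a protein with a domain like that of the regulatory subunit of protein kinase A, had 114 CPM (104 to 124) and 7.73 CPM (5.90 to 9.95), a log2 ratio of 3.88 (3.49 to 4.29). Tmem212 (chr3:27866066-27896368), a predicted transmembrane protein, had 7.81 CPM (5.37 to 11.0, 33 UMIs) in TKO1 and 0 UMIs in the neuroendocrine-like cells of TKO2, so it was at least 20.2-fold higher in TKO1 with TKO2 taken at 3 UMIs, and at least 16.5-fold without the ciliated-rich cells. The exact interval of the ratio, which allows for counting error in both tumors, starts at 15.5-fold and at 12.6-fold without those cells. Of its UMIs in TKO1, 6 of 33 lay in 1 ciliated-rich cell.

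Tppp3 was the exception. It encodes a member of the tubulin polymerization-promoting family (chr8:105467493-105471526), and had 32.9 CPM (27.6 to 38.8, 139 UMIs) in TKO1 and 16.8 CPM (14.0 to 19.9, 130 UMIs) in TKO2, a log2 ratio of 0.97 (0.62 to 1.33), and of 0.80 (0.43 to 1.16) without the ciliated-rich cells. In TKO2 it was not spread evenly, with 121 CPM in cluster 6 and at most 9.02 CPM in each of the other 7 neuroendocrine-like clusters. Without Tppp3, the sum over the other 9 genes had a log2 ratio of 4.91 (4.66 to 5.17).

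**Figure D1:**
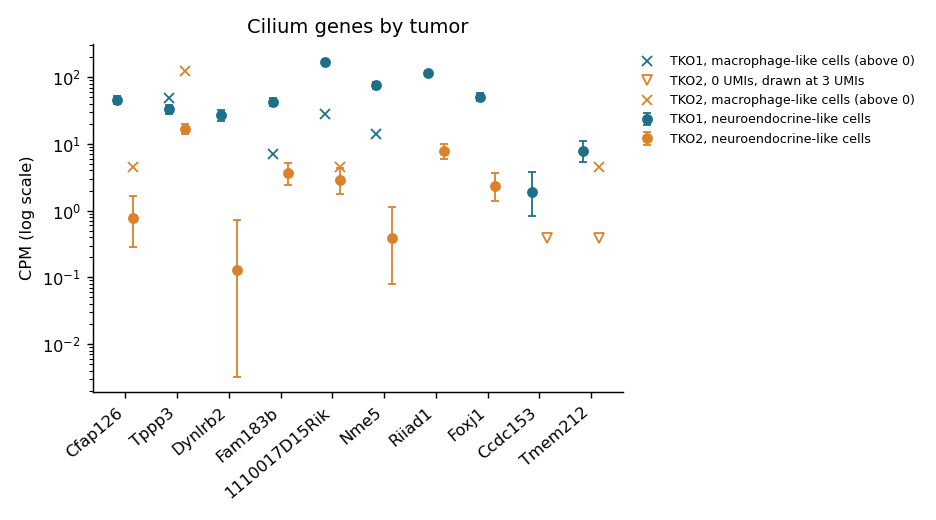
Level of each cilium gene in CPM (log axis) in the neuroendocrine-like cells of TKO1 (blue) and TKO2 (orange), with exact Poisson 95% intervals, and in the macrophage-like cells as crosses where above 0. TKO1 lies above TKO2 for each gene, least for Tppp3 (32.9 against 16.8 CPM), and the open triangles stand for 0 UMIs drawn at 3 UMIs. For Ccdc153 the point of TKO1 is 8 UMIs, all in ciliated-rich cells. The ciliated-rich cells of TKO2 are among its unnamed cells and are not drawn.

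The levels were also set beside those in macrophage-like cells, a cell type that is not ciliated. How much free RNA added to any of these levels was not tested. In the macrophage-like cells of TKO1, the 9 genes other than Tppp3 summed to 48.9 CPM (19.7 to 101, 7 UMIs), against 534 CPM (512 to 556) in the neuroendocrine-like cells. In those of TKO2 the same sum was 13.3 CPM (2.75 to 38.9, 3 UMIs) against 17.8 CPM, a value inside that interval. Over all its neuroendocrine-like cells, TKO2 was thus not distinguishable from its macrophage-like cells at this depth, while TKO1 was above its own. The 9 genes were not even over the clusters of TKO2, with 48.0 CPM (34.7 to 64.6) in cluster 2, 30.9 CPM (21.8 to 42.6) in cluster 0, a median of 13.3 CPM over the 8 and 5.62 CPM in cluster 5, the lowest. Foxj1 had 15 of its 18 UMIs in clusters 0 and 2, at 7.52 CPM (3.44 to 14.3) and 6.70 CPM (2.46 to 14.6), and was at 0 UMIs in 4 clusters. Tppp3 differed from these 9 genes. In the macrophage-like cells it had 48.9 CPM (19.7 to 101) in TKO1, an interval that holds its level in the neuroendocrine-like cells of TKO1. In those of TKO2 it had 124 CPM (82.6 to 180), above the 16.8 CPM of the neuroendocrine-like cells. The club-like cells of TKO1 had 122 CPM (78.2 to 182) of the sum of 10. In the unnamed cells of TKO2 the sum of 10 was 560.5 CPM (434 to 712), and 120 CPM (65.4 to 201) without the 2 ciliated-rich cells.

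Markers of other cell types also differed between the neuroendocrine-like cells of the tumors. The 8 club markers summed to 405 CPM (386 to 425) in TKO1, from 220 to 721 CPM over its clusters, and to 19.8 CPM (16.8 to 23.2) in TKO2, with 2 and 4 of the 8 at 0 UMIs. In cluster 4 of TKO1, where the cilium genes were highest, the club markers had 264 CPM. The 14 macrophage markers had 36.9 CPM (31.3 to 43.2) in TKO1 and 12.6 CPM (10.3 to 15.4) in TKO2, with 3 of the 14 at 0 in each. The 10 alveolar markers had 28.9 and 11.0 CPM, lymphocyte markers 20.6 and 1.55 CPM, fibroblast markers 16.1 and 1.55 CPM, and neutrophil and endothelial markers at most 2.60 CPM. In cluster 4 the alveolar, lymphocyte and fibroblast markers had 4.33, 6.50 and 0 CPM. Their part in the difference of the cilium genes was not tested.

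Other genes of the motile cilium were compared in the same way. Of 90 listed, 55 had at least 10 UMIs in the 2 tumors together, a minimum that some genes reached by their UMIs in TKO1 alone, so the count is a description. Of the 55, 35 were at least 4-fold higher in TKO1 and 0 lower, with a median log2 ratio of 3.16, and without the ciliated-rich cells 33 of 53 were. The radial spoke gene Rsph1 had 61.3 CPM in TKO1 and 2.06 CPM in TKO2. The outer arm dynein gene Dnaic1 had 56 UMIs in TKO1 and 0 in TKO2. Among the factors that precede Foxj1 or act beside it, Trp73 had 17.7 against 1.16 CPM and Mcidas 9 UMIs against 1, while Rfx3 had 13.0 against 16.0 CPM and Myb 22.2 against 27.4 CPM, so these last 2 were not higher in TKO1. The genes of intraflagellar transport, which builds motile and primary cilia alike, were at least 4-fold higher for 5 of 25, with a median of 1.15, and those of the primary cilium for 4 of 16, with a median of 1.42, where 14.5% of all genes were. Of 5 genes of the same families as members, 0 were 4-fold higher, with Tppp at 1 UMI and 12 UMIs, Dynlrb1 at 354 and 390 CPM, Nme1 at 856 and 2000.5 CPM and Nme7 at 18.0 and 16.4 CPM in TKO1 and TKO2.

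Across single cells, UMIs of the 10 genes were counted at a common depth of 1000 UMIs per neuroendocrine-like cell, by thinning, which left 2150 cells of TKO1 and 3020 of TKO2 and set aside 840 and 361 cells with fewer. Of the cells of TKO1, 30.6% (exact Clopper-Pearson 28.6 to 32.6) had a UMI of any of the 10 genes, and 35.5% did without thinning. In TKO2 the share was 3.08% (2.49 to 3.76), or 5.44% without thinning. For the 9 genes other than Tppp3, it was 29.5% (27.6 to 31.5) in TKO1 against 4.88% of its 82 macrophage-like cells, and 1.79% (1.35 to 2.33) in TKO2 against 2.68% (0.556 to 7.63) of 112. In TKO2 the share was thus not distinguishable from that in macrophage-like cells, which rests on 3 UMIs there.

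Most cells of TKO1 with a UMI had only 1 of the genes. Of the 2150 cells, 434 had UMIs of 1 gene, 148 of 2 and 75 of 3 or more, with at most 8 genes in a ciliated-rich cell. In TKO2, 89 cells had 1 gene and 4 had 2 or more. The ratio of variance to mean of the summed UMIs, expected at 1 from counting error, was 3.36 in TKO1 and 2.84 without the ciliated-rich cells. A class of 126 cells (5.86%, 4.91 to 6.94) had 3 or more UMIs, with 60 of them at 3 and 150 further cells at 2, just below. In TKO2, 8 cells reached 3 UMIs, of which 2 had more than 1 of the genes.

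**Figure D2:**
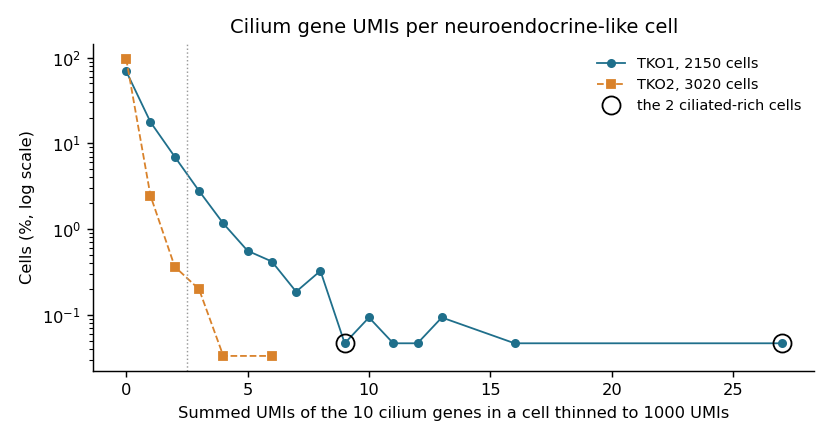
Share of neuroendocrine-like cells (%, log axis) against the summed UMIs of the 10 cilium genes in a cell thinned to 1000 UMIs, for TKO1 (2150 cells) and TKO2 (3020 cells), with the dotted line at the limit of 3 UMIs. TKO1 has 126 cells at 3 or more and TKO2 has 8, and rings mark the counts at which the 2 ciliated-rich cells lie.

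Single genes give the same picture of sparse counts. At 1000 UMIs, 1110017D15Rik was read in 13.3% (11.9 to 14.9) of cells of TKO1, Riiad1 in 9.81% (8.59 to 11.2), Nme5 in 5.91% (4.95 to 6.99) and Foxj1 in 4.74% (3.88 to 5.73). Cfap126, Tppp3, Dynlrb2 and Fam183b were each read in 2.51% to 3.77% of cells, and Tmem212 in 0.605% (0.322 to 1.03). In TKO2, Tppp3 reached 1.29% (0.920 to 1.76), and each of the others at most 0.894%.

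Pairs of the genes were correlated across the 2150 cells of TKO1, which share one library and one depth. The median Pearson r over the 45 pairs was 0.11, with a range of -0.01 to 0.72. Over all pairs of 11353 genes with totals in the range of the cilium genes, the median was -0.01. That range ran from 3 UMIs for Ccdc153 to 397 for 1110017D15Rik, and genes were not matched by total within it. Genes with few UMIs are thus part of this background, so 0.11 against -0.01 is a description and no measured contrast. Among the 45 pairs, the 3 largest values were those of Tppp3 with Ccdc153 (0.72), Ccdc153 with Tmem212 (0.55) and Tppp3 with Tmem212 (0.47). They rest on 2 cells, since Tppp3 and Ccdc153 were read together in 2 cells and the other 2 pairs in 1. Without the ciliated-rich cells Ccdc153 gives no value, and Tppp3 with Tmem212 had an r of -0.01.

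In the other 2148 cells, the median over 36 pairs was 0.09 and the highest value was 0.30, for Cfap126 with 1110017D15Rik, which were read together in 39 cells. Tppp3 with Fam183b had 0.27 from 15 cells, Dynlrb2 with 1110017D15Rik 0.24 from 31 cells, and Dynlrb2 with Fam183b 0.22 from 12 cells. All but Foxj1, Ccdc153 and Tmem212 had a median r of 0.11 to 0.17 with the rest. Foxj1 stood lower, with a median of 0.05 and at most 0.09 with any of the others. Tmem212 had a median of -0.01. Values of this size in sparse counts describe a weak tendency and do not set one pair above another.

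**Figure D3:**
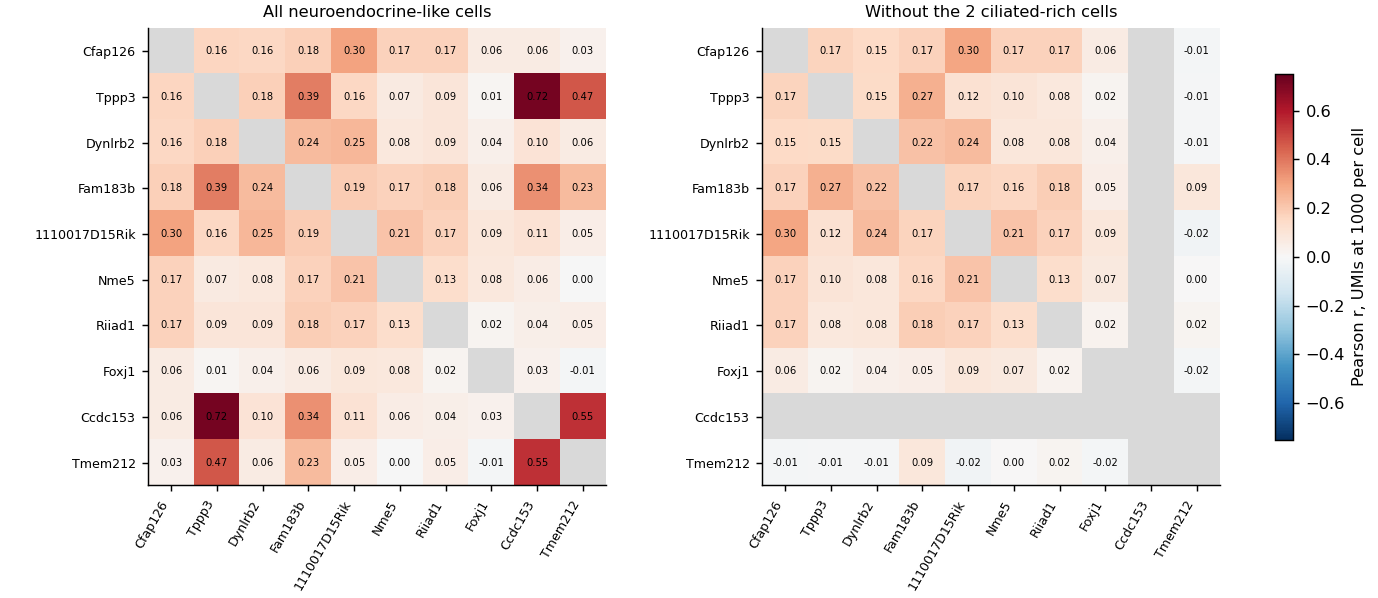
Pearson r of UMIs per cell at 1000 UMIs between each pair of cilium genes, over the 2150 neuroendocrine-like cells of TKO1 on the left and without the 2 ciliated-rich cells on the right, with grey where no value exists. The values 0.72, 0.55 and 0.47 of the left panel are gone in the right panel, where the highest is 0.30.

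A count of each gene in cells chosen by the other 9 describes how far the genes occur in the same cells. All 10 were selected for their level in clusters of these same TKO1 cells, so this is partly built in. In cells with 3 or more UMIs of the other 9, Fam183b was read in 23.7% (16.2 to 32.6) of 114 cells, against 0.929% (0.509 to 1.55) of 1507 cells with 0, and its UMIs per cell were 38.9-fold higher (22.4 to 70.6). Dynlrb2 was 25.9-fold higher (12.5 to 56.9), Cfap126 18.0-fold (10.9 to 30.0), 1110017D15Rik 12.9-fold (9.83 to 16.8), Nme5 10.7-fold (6.90 to 16.6) and Riiad1 5.41-fold (3.75 to 7.67). Tppp3 was 17.8-fold higher (10.2 to 31.5), or 11.0-fold (5.76 to 20.8) without the ciliated-rich cells. Foxj1 was 2.91-fold higher (1.42 to 5.47), in 9.09% (4.45 to 16.1) of 110 cells against 3.43% (2.58 to 4.46) of 1546, and 2.71-fold (1.28 to 5.22) without the ciliated-rich cells. Its interval lies below those of Fam183b, Dynlrb2, Cfap126, Tppp3, 1110017D15Rik and Nme5. These intervals cover counting error only and take UMIs as independent, and each gene was compared over its own set of cells, so the order is a description. Tmem212 was 4.77-fold higher (1.09 to 16.5) with the ciliated-rich cells and 1.21-fold (0.0279 to 8.51) without them, so no difference was detectable there.

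The level of these genes was highest in one cluster, although most cells with a UMI of them lay in others. Over the 8 neuroendocrine-like clusters of TKO1, all 10 genes were highest in cluster 4, which holds 370 cells. For Ccdc153 and Tmem212 this rests on the 2 ciliated-rich cells, both of cluster 4. They held all 8 UMIs of Ccdc153 and 6 UMIs of Tmem212, which had 21.7 CPM in cluster 4 and 12.5 CPM in cluster 3. The sum of 10 had 1972 CPM (1846 to 2105) in cluster 4, 690 CPM (621 to 764) in cluster 0, 681 CPM (621 to 745) in cluster 2 and 76.5 CPM in cluster 7, the lowest. Without the ciliated-rich cells cluster 4 had 1855 CPM. Fam183b, Cfap126, 1110017D15Rik, Tppp3 and Dynlrb2 were among the leading genes of cluster 4, and the list was chosen for its level in such clusters, so this is partly built in. Only genes read in at least 10 cells of the tumor could form the clusters, so Ccdc153 took no part. Which of the others were among the variable genes used is not given here. Of the 657 cells with a UMI of any of the 10 genes, 175 lay in cluster 4, 130 in cluster 2 and 110 in cluster 0. Of 258 cells of cluster 4 at 1000 UMIs, 77 (29.8%, 24.3 to 35.8) had 3 or more UMIs of the 10 genes, against 21 of 347 (6.05%) in cluster 2, 15 of 297 (5.05%) in cluster 0 and 0 of 168 (0 to 2.17) in cluster 7.

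The genes did not peak alike. Foxj1 ran from 5.89 CPM in cluster 7 to 117 CPM (87.9 to 153) in cluster 4, with a median of 48.3 over the clusters and 65.7 CPM in cluster 2, the second highest. Riiad1 had 280 CPM in cluster 4 and 172 in cluster 0. Cfap126 had 247 CPM (204 to 297) in cluster 4, 52.5 CPM in cluster 0 and 0 UMIs in clusters 1 and 7. Fam183b had 267 CPM in cluster 4 and 30.0 in cluster 0. The step from the highest to the second cluster was thus small for Riiad1 and Foxj1 and large for Cfap126 and Fam183b. Outside the ciliated-rich cells, UMIs of each of the 10 genes but Cfap126 and Ccdc153 were found in all 8 clusters.

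The cells with 3 or more UMIs of the 10 genes also held more RNA of other motile cilium genes. Those genes did not pick the cells. Their lists were chosen with earlier results of these data known, so they give no independent check. Among 20 such genes with at least 20 UMIs in both classes together, 13 were at least 2-fold higher in the 126 cells than in the 1493 cells with 0 UMIs, and 3 at least 2-fold lower, where 6.89% of all genes were higher and 13.3% lower. Some genes, such as Pifo with 21 and 13 UMIs, reached that minimum only with their UMIs in the 126 cells, so the count is a description. Without the ciliated-rich cells 13 of 20 were higher and 2 lower, against 7.19% and 13.2%. Leaving out regulators and centriole genes, 13 of 16 were higher and 1 lower, with a median log2 ratio of 1.82, and 1.61 without the ciliated-rich cells. These cells are compared with other cells of the same tumor, so the ratios have no replicate check.

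The radial spoke genes Rsph1 and Rsph9 had 238 against 45.5 CPM and 302 against 79.0 CPM, log2 ratios of 2.39 (1.72 to 3.03) and 1.93 (1.36 to 2.47). Pifo, a ciliary gene, had 167 CPM (21 UMIs) against 8.71 CPM (13 UMIs), a log2 ratio of 4.26 (3.19 to 5.38). Capsl had 238 against 49.6 CPM, Mlf1, a known Foxj1 target, 333 against 93.8 CPM, and the microtubule gene Mns1 183 against 73.0 CPM. Others of the 13 were 1700016K19Rik, 1700088E04Rik, Morn2, Spa17, Spef1 and Dnaic1, the last with 3 UMIs against 17 and an interval that holds 0 (-1.35 to 2.85). The 3 lower genes were Plk4, Myb and Dnaaf2, with 1 to 3 UMIs in the 126 cells and intervals that hold 0.

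Genes of the motors of the cilium had few UMIs. Of 14 genes of axonemal dynein subunits, only Dnaic1 reached 20 UMIs in both classes of cells together, and of 17 genes for dynein assembly, docking and regulation only Gas8 and Dnaaf2 did, neither of them higher. Below that minimum some genes of these lists had more UMIs per cell in the 126 cells, such as Drc1, of the dynein regulatory complex, with 12 UMIs against 5 and a log2 ratio of 4.83 (3.22 to 6.69), and the dynein heavy chain gene Dnah9, with 5 against 5 and 3.57 (1.45 to 5.69). These 2 were chosen after their values were seen. Trp73 had 39.7 against 20.1 CPM, a log2 ratio of 0.98 (-0.74 to 2.36). Of the genes of intraflagellar transport, 8 of 22 were at least 2-fold higher and 0 lower, with a median of 0.74. Among them were Ift57 (262 against 121 CPM) and Dync2h1 (79.4 against 27.5 CPM), its retrograde motor. Without the ciliated-rich cells 7 of 21 were higher, Ift74 no longer among them, and the median was 0.83. Of the genes of the primary cilium, 4 of 11 were higher, with a median of 0.69. Among them were Tmem67 (71.4 against 8.71 CPM) and Arl3 (270 against 123 CPM). Over all genes, 6.89% were higher and 13.3% lower. Of the genes counted as higher, Ift43, Ift46 and Bbs9 have intervals that hold 0. Wdr60, Tmem67 and Bbs9 reached the minimum of 20 UMIs only with their UMIs in the 126 cells, so these counts are a description. Dynlrb1, Nme1, Nme2 and Nme7 stayed within 2-fold.

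**Figure D4:**
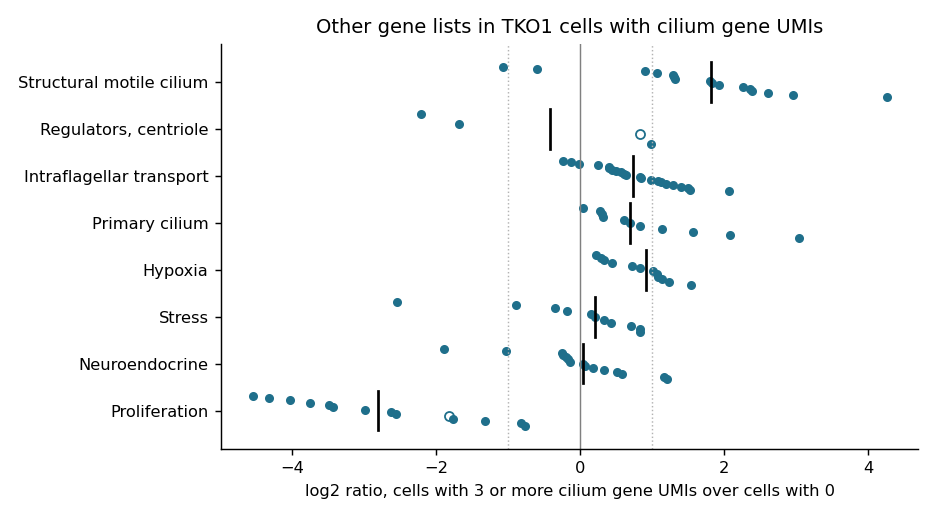
log2 ratio of single genes between TKO1 cells with 3 or more UMIs of the 10 cilium genes (126 cells) and with 0 (1493 cells), at 1000 UMIs per cell, by gene list, with dotted lines at 2-fold and a bar at each list's median. The structural motile cilium genes have a median of 1.82 and the proliferation genes of -2.81, and open symbols are genes with 0 UMIs in the 126 cells, drawn at 3 UMIs as an upper limit.

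Neuroendocrine markers were read in the cells with 3 or more UMIs. Calca had 14540 CPM (13881 to 15221) in them, lower than the 17314 CPM (17104 to 17527) of cells with 0, a log2 ratio of -0.25. Chga was read in 65.9% (56.9 to 74.1) and 51.8% (49.2 to 54.3). Of 15 neuroendocrine markers, Resp18 and Syp were at least 2-fold higher and Stmn3 and Pcsk1 at least 2-fold lower, where 6.89% of all genes were higher and 13.3% lower, and the interval for Syp holds 0. Markers of other cell types were at or near 0 in these cells, with 3 UMIs of 14 macrophage markers, 1 of 10 alveolar markers and 0 of lymphocyte, neutrophil, fibroblast and endothelial markers, while the 8 club markers had 254 CPM (174 to 359) against 431 CPM (399 to 466) in cells with 0. Their median depth before thinning was 1258.5 UMIs, against 1423.

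Proliferation genes were lower in the same cells. Of 14, 12 were at least 2-fold lower and 0 higher, where 13.3% of all genes were lower, and their median log2 ratio was -2.81. Top2a had 1 UMI in the 126 cells (7.94 CPM) against 186 CPM in cells with 0, and Mki67 had 0 UMIs against 84.4 CPM. Summed, the 14 genes had 429 CPM (322 to 559) in cells with 3 or more UMIs, 1260 CPM (1166 to 1359) in cells with 1 or 2, and 2313 CPM (2236 to 2391) in cells with 0. Among the 941 cells without any UMI of these genes, 12 of 12 tested motile cilium genes were at least 2-fold higher with cilium gene UMIs, where 5.70% of all genes were. The same minimum of 20 UMIs in both classes together chose the tested genes, so this count is also a description. Of the 126 cells with 3 or more UMIs, 77 lay in cluster 4, as did 83 of the 1493 cells with 0. Within cluster 4 the proliferation sum was 482 CPM (344 to 656) at 0 UMIs. At 3 or more it was 299 CPM (189 to 448), an interval that overlaps the first. In the other clusters, pooled, the sums were 2421 CPM (2340 to 2503) and 633 CPM (430 to 898). The part of differences between clusters in the order over all cells was not tested.

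The hypoxia genes Bnip3, a target of hypoxia-inducible factor in mitophagy, and Ndrg1, another such target, were next set beside the 10 genes. A UMI of either was read in 45.7% (43.1 to 48.2) of the 1493 cells with 0 UMIs of the 10 genes, 59.3% (55.0 to 63.5) of the 531 cells with 1 or 2, and 77.8% (69.5 to 84.7) of the 126 cells with 3 or more. Bnip3 made nearly all of this, with 857 CPM (810 to 905), 1318 CPM (1222 to 1420) and 2016 CPM (1776 to 2280) in the 3 classes, while Ndrg1 had 38.8, 37.7 and 47.6 CPM with intervals that overlap. Of 10 other hypoxia genes with enough UMIs, 5 were at least 2-fold higher in the cells with 3 or more and 0 lower, where 6.89% of all genes were higher and 13.3% lower. They were Egln3 (476 against 163 CPM), Ankrd37, Aldoa, Pdk1 and Adm, the last with 5 UMIs and an interval that holds 0 (-0.65 to 2.47). Without the ciliated-rich cells 4 of 10 were higher, without Pdk1, against 7.19% of all genes.

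The stress genes Ddit3, which encodes CHOP, and its target Trib3 gave no such order over all cells. A UMI of either was read in 6.70% (5.48 to 8.09), 7.16% (5.11 to 9.69) and 7.94% (3.87 to 14.1) of the 3 classes. Of 9 other stress genes, 0 were at least 2-fold higher and 1, Slc3a2, lower, where 6.89% of all genes were higher and 13.3% lower. Below 2-fold, Nupr1 had a log2 ratio of 0.84 (0.62 to 1.05), Cebpb of 0.83 (0.45 to 1.19) and Ddit4 of 0.70 (0.02 to 1.32). Without the ciliated-rich cells Nupr1 had 0.64 (0.40 to 0.87). The intervals of the rest hold 0, apart from that of Slc3a2, with 1 UMI against 69.

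Across the 2150 cells, the sum of 10 had an r of 0.18 with Bnip3 plus Ndrg1 and of -0.01 with Ddit3 plus Trib3. The first was 0.20 without the ciliated-rich cells, 0.16 in the 941 cells without proliferation UMIs and 0.10 in the 1892 cells outside cluster 4. Within single clusters it was 0.25 in cluster 3 and between -0.04 and 0.08 in each of the other 7. Single genes had an r with Bnip3 plus Ndrg1 from 0.01 for Tmem212 and Ccdc153 to 0.15 for 1110017D15Rik, with Foxj1 at 0.10.

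Both pairs and the cilium genes were highest in the same cluster of TKO1. In cluster 4, Bnip3 had 2683 CPM (2536 to 2837), Ndrg1 134 CPM (103 to 172), Ddit3 327 CPM (277 to 384) and Trib3 104 CPM (76.7 to 138), each the highest of the 8 clusters. Within that cluster the cells differed. Ddit3 or Trib3 was read in 32.5% (22.6 to 43.7) of the 83 cells with 0 UMIs of the 10 genes, 15.3% (8.83 to 24.0) of the 98 with 1 or 2, and 9.09% (3.73 to 17.8) of the 77 with 3 or more, with an r of -0.18 between the sum of 10 and this pair. Bnip3 or Ndrg1 was read in 94.0% (86.5 to 98.0), 82.7% (73.7 to 89.6) and 85.7% (75.9 to 92.6) of the same cells. In the other clusters the stress pair stood at 5.18%, 5.31% and 6.12%, and the hypoxia pair at 42.8% (40.2 to 45.5), 54.0% (49.2 to 58.8) and 65.3% (50.4 to 78.3). Within cluster 4 the intervals of the stress pair at 0 and at 3 or more UMIs do not overlap, and outside it those of the hypoxia pair do not. The stress pair outside it and the hypoxia pair within it have intervals that overlap. The other clusters are pooled here, although they differ in their level of the hypoxia pair. Of their 49 cells with 3 or more UMIs, 21 lay in cluster 2 and 15 in cluster 0. Within these clusters the r of the sum of 10 with the hypoxia pair was -0.02 and 0.02. The part of differences between clusters in the pooled order was not tested. These intervals take the cells of 1 library as independent, so they describe this tumor and give no replicate check. The cluster was formed from the counts of these same cells, and Ddit3, Trib3 and some of the cilium genes are among its leading genes. The part of that in the order within it was not tested.

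**Figure D5:**
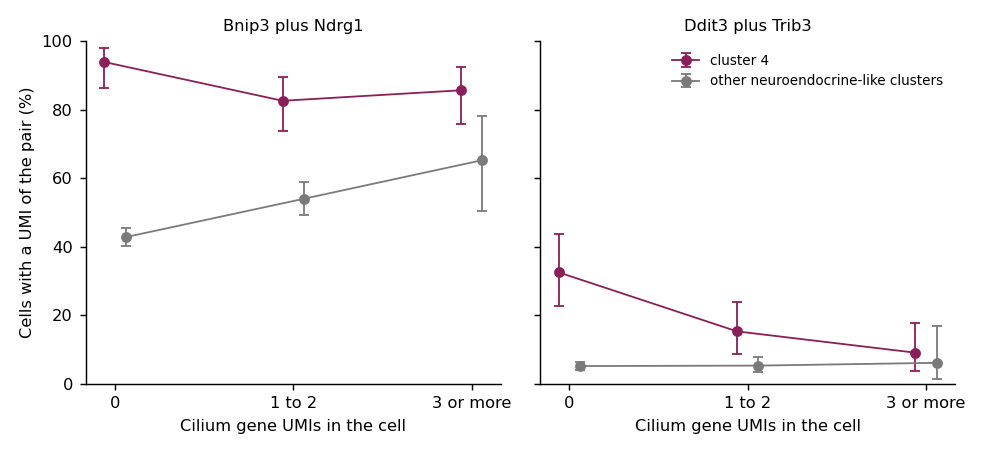
Share of TKO1 neuroendocrine-like cells (%, with exact 95% intervals) that had a UMI of Bnip3 or Ndrg1 (left) and of Ddit3 or Trib3 (right), by UMIs of the 10 cilium genes in the cell, for cluster 4 (purple) and the other clusters (grey). In cluster 4 the stress pair goes from 32.5% at 0 UMIs to 9.09% at 3 or more. In the other clusters, pooled although they differ in level, the hypoxia pair goes from 42.8% to 65.3%.

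At a finer clustering, cluster 4 divided mainly between 2 clusters that each drew in other cells, with 50.5% and 45.9% of its cells. The 2 were alike in the cilium genes (1319 and 1419 CPM) and in Bnip3 (2231 and 2134 CPM), and had 254 and 207 CPM of Ddit3, so no cluster of cilium genes apart from stress genes was separated there.

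Over all 3744 genes with at least 100 UMIs in the thinned cells, 10 had the highest r with the sum of 10, over 2150 cells. They were Itm2b (r of 0.30), Aldoa (0.25), Mt1 (0.24), Resp18 (0.23), Bsg (0.21), Rsph1 (0.20), Mlf1 (0.20), Bnip3 (0.19), Elof1 (0.19) and Gstm1 (0.17). Among them Rsph1 and Mlf1 are motile cilium genes, Aldoa and Bnip3 hypoxia genes, and Resp18 a neuroendocrine gene. Their totals ran from 149 UMIs for Rsph1 to 8719 for Itm2b, and r was not adjusted for this. The order by r is thus no order by fold. In cells with 3 or more UMIs against 0, Rsph1 was 5.23-fold higher and Aldoa 2.02-fold. Without the ciliated-rich cells Itm2b (0.32) and Aldoa (0.29) stayed first, and Egln3 (0.18) and Fam162a (0.17) took the places of Mlf1 and Elof1.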

How the data were processed

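For each tumor, the deposited matrix holds raw counts of UMIs (whole numbers) by gene and barcode. Per the labels they used Cell Ranger and Seurat with mm10, and versions are not given in the sources used here. The 10 genes and all gene lists were chosen with earlier results of these data known. Barcodes with more than 500 genes and under 10% mitochondrial UMIs were retained and clustered per tumor in Seurat 5.3.0 (10 principal components, resolution 0.8). Clusters were named from at least 3 markers, 4-fold higher (neuroendocrine, 2-fold). Scrublet (scanpy 1.11.5) called 0 doublets. UMIs were summed over cells and scaled to CPM, and per-cell measures used cells thinned to 1000 UMIs (seed 1). The genes named are the 10 genes, the 4 hypoxia and stress genes, the genes of the lists, relatives, and the 10 best correlated genes. Intervals cover counting error, and 0 UMIs was taken as 3. No p-value is given, since each tumor has 1 library. Of the gene identifiers, 27645 of 27998 matched GENCODE M21 (GRCm38), which gave positions. Alternatives covered scaling (TMM of edgeR 4.0.16), cells, doublets, depth and limits, and the steps were tested on simulated data. Python 3.11.15 with numpy 2.4.6 and scipy 1.17.1 was used. Values of some genes of the lists are not reported here.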

Additional observations from a re-analysis of the deposited data

Results flagged for a closer look

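UMIs of the 10 cilium genes were also present in barcodes that did not pass the filter of more than 500 genes, which the comparisons do not use. In the 1321 such barcodes of TKO1 the sum of 10 had 374 CPM (331 to 422, 269 UMIs), where 3 UMIs would be 4.18 CPM. In the 248 of TKO2 it had 80.6 CPM (45.1 to 133, 15 UMIs), of which 7 UMIs were Tppp3, where 3 UMIs would be 16.1 CPM. Both are above that limit, and the order of the tumors is the same as in the retained cells.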

How the results depend on the processing

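The log2 ratio of the summed genes between TKO1 and TKO2, 4.04, was 3.66 with TMM factors, 3.81 with mitochondrial and ribosomal protein genes left out of the total, 3.56 over all retained cells, 3.48 over all barcodes with more than 200 genes, and 4.91 without Tppp3, the last added after seeing the data. The count of genes at least 4-fold higher was 8 or 9 under each setting run, with a background of 11.2% of genes under TMM. All 55 values of single genes under these settings stayed above 0. Those of the setting without Tppp3 equal the main values by construction and could not move. Of the 55, 50 stayed within their interval. The other 5 were Tppp3, at 0.60 with TMM factors, 0.55 over all retained cells and 0.57 over all barcodes, and Dynlrb2, at 4.41 and 4.02 over those cells and barcodes. The median r over pairs was 0.06 at 500 UMIs per cell and 0.13 over all retained cells of TKO1. The r with Bnip3 plus Ndrg1 was 0.10 without cluster 4, added after seeing the data, and between 0.15 and 0.21 under the other settings, and that with Ddit3 plus Trib3 between -0.01 and 0.02. The other motile cilium genes at least 2-fold higher were 7 of 13 at 2000 UMIs per cell, which left 484 cells and fewer genes to test, and 11 to 16 otherwise. With 5 or more UMIs in place of 3 the count was 16 of 19, but 31.4% of all genes then passed, at 41 cells. At 500 UMIs it was 15 of 17 against 29.5%, and without cluster 4 it was 12 of 17 against 24.9%. No paired analysis was possible because each group has 1 sample. Depth limits what can be said of single genes in single cells, since most reads of a cilium gene are 1 UMI.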
